A study of Mus musculus with 6 samples.

Results

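The genes described here are 35 genes listed around the amino acid arm of the integrated stress response. Whether each is under the transcription factor ATF4 in these cells was not tested. The 35 are 6 regulators around ATF4, 10 enzymes that make amino acids or handle one-carbon units, and 19 genes for aminoacyl-tRNA synthetases. They were taken by name from the 55536 genes of the deposited tables, and all 35 were found and all 35 were among the 11120 genes abundant enough to test. Bulk RNA was sequenced from RAW264.7 cells, a permanent macrophage line of mouse origin that can be driven into bone-resorbing osteoclasts by RANKL, a cytokine. RANKL was present at 50 ng/mL in all 6 cultures, and in 3 of them etelcalcetide was added at 4 µM. Etelcalcetide is a peptide used as a calcimimetic, a drug acting on the receptor that senses extracellular calcium. Every value below compares RANKL with etelcalcetide (called treated, n = 3) with RANKL alone (n = 3), and no library without RANKL was analysed here. The series design gives 5 days for all cultures, while by the sample labels replicate 1 of each group had 5 days, replicate 2 had 6 and replicate 3 had 7. Whether replicates were grown apart is not said in the labels, and the p-values cover the spread between these libraries alone, which may be technical.

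ATF4 is a bZIP transcription factor whose protein is made when the initiation factor eIF2 is phosphorylated, as happens when amino acids run short or proteins misfold. With partners of the C/EBP family it binds composite elements near genes for amino acid synthesis, amino acid transport and tRNA charging. Aminoacyl-tRNA synthetases join each amino acid to its tRNA, and several of them are held with scaffold proteins in one large complex in the cytosol. The serine pathway branches from glycolysis and feeds one-carbon units into folate metabolism in mitochondria and cytosol. ATF4 is controlled to a large part at translation, so transcript levels here are measures of RNA alone.

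Values are FPKM, reads assigned to a gene scaled by its exon length and by the library's assigned total, as deposited. The libraries held 13742913 to 16264432 assigned reads, and the fewest reads on any of the 35 genes in any library were 35, for Trib3. Fold changes come from limma on scaled log2(FPKM + 0.1) values, and a gene is called changed at a Benjamini-Hochberg adjusted p under 0.05 over all tested genes. By that rule 26% of all tested genes were higher and 27% were lower in treated cells, 53% in all. With deposited library totals in place of the trimmed-mean scaling, 32% were higher and 20.4% lower. Among the tested markers of osteoclasts, 6 of 9 were lower and 0 higher (Ctsk, Atp6v0d2 and Oscar met the minimum for testing only through the RANKL libraries), with a summed level over 10 markers of 393 to 539 FPKM with RANKL and 206 to 219 FPKM in treated libraries. Macrophage markers were higher for 4 of 7 tested and lower for 0, and their sum over 8 markers was 2702 to 2866 against 3137 to 3317 FPKM. Lymphocyte markers summed to at most 0.0361 FPKM in any library, fibroblast and osteoblast markers to at most 0.507, and epithelial and endothelial markers to at most 0.766. In bulk RNA, fewer cells of a type and less RNA per cell cannot be told apart, and the part of the shift in osteoclast and macrophage markers in the results below was not tested.

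The C/EBP-ATF response element has the core TGATGNAA, in which N is any base. That core was searched on both strands from 250 bases before to 50 bases after each start in RefSeq promoter sequences (GRCm38.p6). Of the 35 genes, 28 had a promoter in that table, and 9 of the 28 (32.1%) held a match in any of their promoters, compared with 4.51% of all 27025 genes in the table and 3.97% of its 32851 promoters. The share was 2 of 6 regulators, 2 of 10 enzymes and 5 of 12 synthetases. The genes without a promoter there were all synthetases: Cars, Hars, Lars, Nars, Rars, Vars and Wars. The synthetase share thus covers 12 of the 19. The palindromic cAMP response element TGACGTCA was in 0 of the 28, in 2.03% of all genes and in 1.79% of all promoters, and a match of either motif to these letters is a description, not a site of binding. Of the genes whose match lay before the start 5 are shown, since such elements are the sequences that ATF4 is known to bind. Capitals mark the match, each line runs 5′ to 3′ on the gene's strand, and a match that starts with TT is the same core read from the other strand.
Asns, chr6:7693214-7693243, minus strand: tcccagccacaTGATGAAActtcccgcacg
Pycr1, chr11:120643833-120643862, minus strand: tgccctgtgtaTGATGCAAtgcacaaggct
Chac1, chr2:119351038-119351067, plus strand: cttccctgccgTTGCATCActcctgccagg
Gars, chr6:55037960-55037989, plus strand: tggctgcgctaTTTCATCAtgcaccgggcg
Tars, chr15:11399659-11399684, minus strand: caggagtcccgTTGCATCAgctggtt
The match began 23 bases before the start in Asns, 103 in Pycr1, 193 in Chac1, 30 in Gars and 15 in Tars. Iars, Trib3 and Yars held theirs after the start. Aars held a match on either side of the start and is not shown. Transcripts of these 9 genes were not uniform in the comparison: 7 were called lower, while Pycr1 and Trib3 did not pass the test. Of all 35 genes 71.4% were called lower, and of all tested genes 27%. Whether a match goes with a fall was not tested.

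Over all 35 genes, 25 were lower, 2 were higher and 8 did not pass, with a median log2 fold change of −0.40, against a median of −0.01 over all tested genes. With library totals alone, where 52.4% of all tested genes were called, the same counts were 22 lower and 3 higher, with a median of −0.32 against 0.07. The lower share of 71.4% stands beside the 27% of all tested genes that were lower. In deposited FPKM the 2 groups did not overlap for 24 of the 35 genes, 21 with the treated libraries lower and 3 with them higher. Among all tested genes 61.2% did not overlap, 24.5% with the treated libraries lower and 36.7% with them higher.

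**Figure D1:**
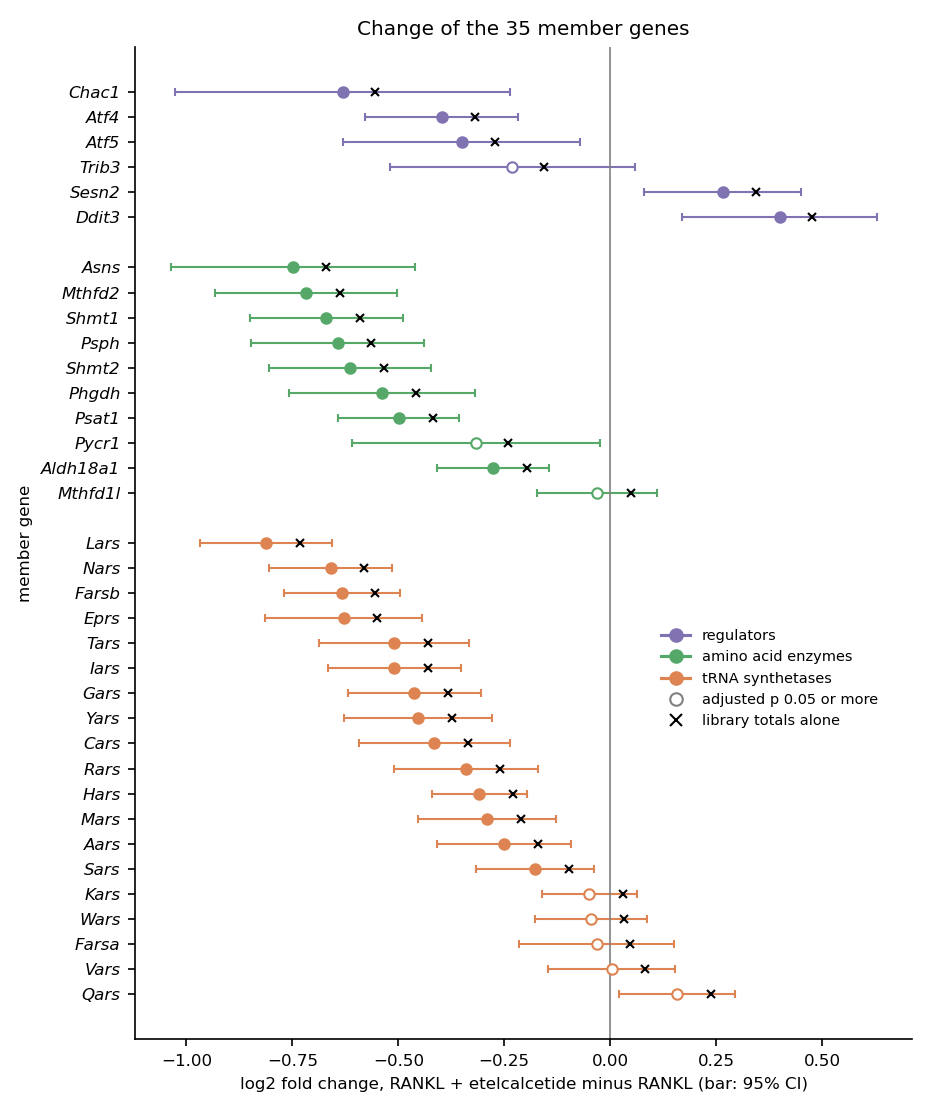
Log2 fold change of each of the 35 genes (treated minus RANKL, horizontal axis) with its 95% confidence interval, by class. Filled points passed an adjusted p of 0.05, open points did not, and crosses give the value with library totals alone, which lies to the right of each point; Lars is the lowest point and Ddit3 the highest.

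The 6 regulators split: 3 were lower in treated cells (Atf4, Atf5 and Chac1), 2 were higher (Ddit3 and Sesn2) and Trib3 did not pass. Their median log2 fold change was −0.29, and −0.21 with library totals alone, where 2 were higher and 2 lower.

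Atf4 (chr15:80255184-80257541, GRCm38), the central factor of the response, stood at 97.2, 100.4 and 106 FPKM in RANKL replicates 1, 2 and 3 and at 92.3, 77.5 and 74.7 FPKM in treated replicates 1, 2 and 3. All 3 treated values lay below all 3 RANKL values, with treated replicate 1 nearest to them. The log2 fold change was −0.40 ± 0.080 (SE), 24.1% lower, with an adjusted p of 0.00295.

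Atf5 (chr7:44812256-44816658), a related bZIP factor that is also controlled at translation, had 8.06, 6.79 and 8.98 FPKM with RANKL and 7.64, 5.99 and 6.05 FPKM in treated cells. The groups overlapped, since treated replicate 1 exceeded RANKL replicate 2. It was called lower at a log2 fold change of −0.35 ± 0.12 (SE) and an adjusted p of 0.0388. The call was lost with library totals alone (adjusted p = 0.0983), with no minimum level for testing (0.109), and without RANKL replicate 1 (0.0858) or 3 (0.104) or treated replicate 2 (0.111) or 3 (0.118).

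Ddit3 (chr10:127290774-127296288), which encodes CHOP, a C/EBP-like factor that ATF4 induces and that is tied to cell death under lasting stress, moved the other way. Its values were 3.10, 3.42 and 3.50 FPKM with RANKL and 5.00, 4.84 and 4.24 FPKM in treated cells, with no overlap. The log2 fold change was 0.40 ± 0.10 (SE), with an adjusted p of 0.00941. Of its exon length 10.9% overlaps other genes, among them Mars on the opposite strand, and without a stated strand setting the reads in that overlap cannot be assigned.

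Trib3 (chr2:152337422-152344032), a pseudokinase that ATF4 and CHOP induce and that binds ATF4, was low: 1.42, 1.36 and 1.36 FPKM with RANKL and 1.16, 1.20 and 1.33 FPKM in treated cells. The deposited values did not overlap, but the log2 fold change of −0.23 ± 0.13 (SE) had an adjusted p of 0.157. Chac1 (chr2:119351229-119354381), an enzyme that cleaves glutathione and a common readout of ATF4, had 3.36, 3.001 and 4.04 FPKM with RANKL and 3.05, 1.96 and 2.07 FPKM in treated cells. Treated replicate 1 fell within the RANKL range and replicates 2 and 3 below it. Its log2 fold change was −0.63 ± 0.17 (SE), with an adjusted p of 0.0142, and 0.0573 when no minimum level was set for testing.

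Sesn2 (chr4:132492032-132510501), a stress-induced leucine sensor that restrains the growth kinase complex mTORC1, had 6.73, 7.12 and 8.16 FPKM with RANKL and 9.37, 9.07 and 9.50 FPKM in treated cells. All treated values were above all RANKL values. The log2 fold change was 0.27 ± 0.081 (SE), with an adjusted p of 0.0222. This call did not survive the loss of any library but RANKL replicate 3: adjusted p was 0.0555 without RANKL replicate 1, 0.0674 without RANKL replicate 2, and 0.0559, 0.0586 and 0.0711 without treated replicates 1, 2 and 3.

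**Figure D2:**
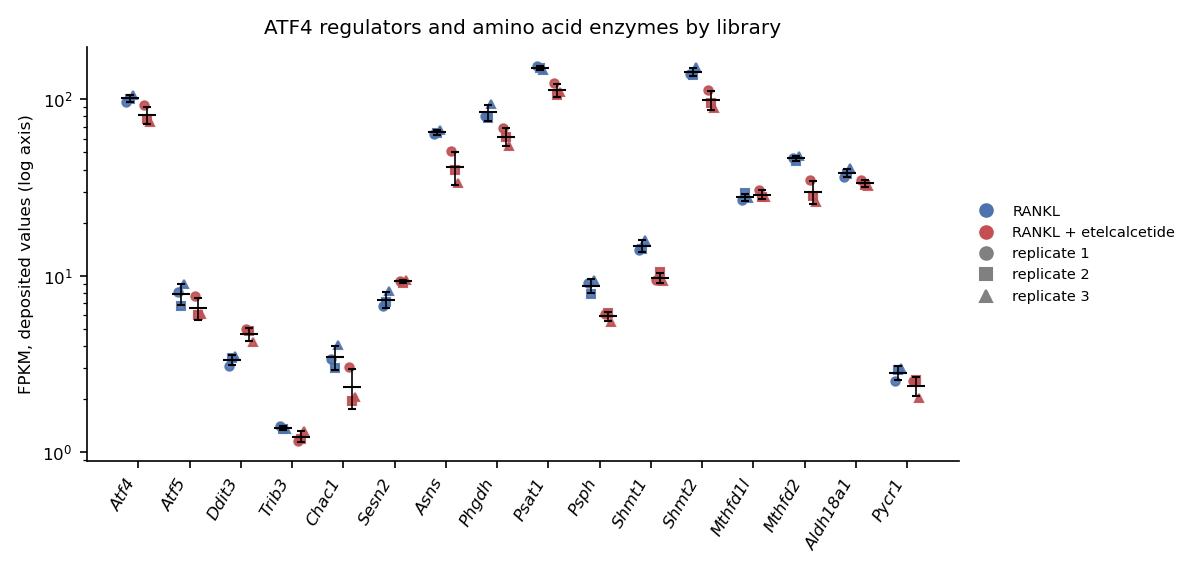
Deposited FPKM (vertical axis, log scale) of the 6 regulators and the 10 amino acid enzymes in each library. Colours give the group, marker shapes replicates 1, 2 and 3, and black bars the mean ± SD of 3 libraries; Ddit3 and Sesn2 are the regulators whose treated points all lie above the RANKL points.

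Of the 10 amino acid enzymes, 8 were lower in treated cells, 0 were higher and 2 (Mthfd1l and Pycr1) did not pass. The median log2 fold change was −0.58, and −0.50 with library totals alone, where the same counts of 8 and 0 were found. For all 8 of them the deposited FPKM of the groups did not overlap.

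Asns (chr6:7675169-7693254), which makes asparagine from aspartate and glutamine, stood at 63.5, 64.3 and 67.2 FPKM with RANKL and at 50.8, 40.0 and 33.5 FPKM in treated replicates 1, 2 and 3. Treated libraries differed among themselves more than RANKL libraries did, with an SD of 8.76 against 1.95 FPKM. The log2 fold change was −0.75 ± 0.13 (SE), 40.5% lower, with an adjusted p of 0.0012.

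The 3 enzymes that build serine from a glycolytic intermediate were all lower. Phgdh (chr3:98313170-98339990), the first step, had 80.2, 78.3 and 94.5 FPKM with RANKL and 68.4, 61.3 and 54.3 FPKM in treated cells. This was a log2 fold change of −0.54 ± 0.097 (SE), with an adjusted p of 0.00163. Psat1 (chr19:15904678-15947337), the aminotransferase of the second step, had 155, 150.3 and 147 FPKM against 123, 106 and 109 FPKM. The log2 fold change was −0.50 ± 0.063 (SE), with an adjusted p of 0.000235. Psph (chr5:129765558-129787449), the phosphatase that releases serine, was less abundant, at 9.10, 7.89 and 9.46 against 6.07, 6.17 and 5.51 FPKM. Its log2 fold change was −0.64 ± 0.090 (SE), with an adjusted p of 0.000431, and 10.4% of its exon length overlaps Cct6a on the other strand.

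Serine is split into glycine and a one-carbon unit by Shmt1 in the cytosol and Shmt2 in mitochondria. Shmt1 (chr11:60788104-60811718) had 14.1, 14.2 and 16.1 FPKM with RANKL and 9.53, 10.5 and 9.29 FPKM in treated cells, a log2 fold change of −0.67 ± 0.080 (SE) with an adjusted p of 0.000165. Shmt2 (chr10:127517123-127522444) had 139.8, 138 and 152 FPKM with RANKL and 113, 95.7 and 89.4 FPKM in treated cells, a log2 fold change of −0.61 ± 0.084 (SE) with an adjusted p of 0.000366. Within each library the FPKM of Shmt2 was 9.95, 9.71 and 9.46 times that of Shmt1 with RANKL. In treated cells it was 11.8, 9.14 and 9.62 times, and these ratios overlapped (two-sided exact permutation test, p = 0.9). The size of such a ratio depends on the exon lengths used, 3109 bases for Shmt2 and 3883 for Shmt1.

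Mthfd2 (chr6:83305691-83325908), the mitochondrial dehydrogenase and cyclohydrolase that follows, had 46.3, 45.0 and 47.6 FPKM with RANKL and 34.9, 28.5 and 26.3 FPKM in treated cells. Its log2 fold change was −0.72 ± 0.095 (SE), with an adjusted p of 0.000303. Mthfd1l (chr10:3973118-4167081), the ligase that releases formate from the same mitochondrial route, had 26.8, 29.4 and 27.6 against 30.8, 27.8 and 28.0 FPKM. Its groups overlapped, and the log2 fold change of −0.03 ± 0.063 (SE) had an adjusted p of 0.706 and a 95% interval of −0.17 to 0.11. With library totals alone the Mthfd1l value changed sign, to 0.05.

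Proline is made from glutamate by Aldh18a1 and then Pycr1 in mitochondria. Aldh18a1 (chr19:40550257-40588463) had 36.4, 38.0 and 40.6 FPKM with RANKL and 34.9, 32.7 and 32.5 FPKM in treated cells. It fell by a small amount, a log2 fold change of −0.28 ± 0.058 (SE) with an adjusted p of 0.00386. Pycr1 (chr11:120635712-120643769) had 2.53, 2.95 and 3.01 against 2.54, 2.57 and 2.05 FPKM, with overlapping groups, a log2 fold change of −0.32 ± 0.13 (SE) and an adjusted p of 0.0659. Without RANKL replicate 1 its adjusted p was 0.0393.

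Of the 19 synthetase genes, 14 were lower in treated cells, 0 were higher at the threshold and 5 (Kars, Wars, Farsa, Vars and Qars) did not pass. The median log2 fold change was −0.34, and −0.26 with library totals alone, where 12 were lower and 1 (Qars) was higher. Falls ran from −0.81 for Lars to −0.18 for Sars on the log2 scale.

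Lars, the leucyl-tRNA synthetase, had the most negative log2 fold change of the 35 genes when all 6 libraries were used. Without RANKL replicate 1 Asns was lower (−0.77 against −0.75), as it was without treated replicate 1 (−0.90 against −0.85). Lars had 44.5, 39.1 and 39.5 FPKM with RANKL and 25.9, 24.6 and 23.3 FPKM in treated cells. The groups stood far apart, and the log2 fold change was −0.81 ± 0.069 (SE), 43.1% lower, with an adjusted p of 2.43e-05.

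Farsb (chr1:78417975-78488897), the beta subunit of phenylalanyl-tRNA synthetase, had 52.5, 52.3 and 50.2 FPKM with RANKL and 38.1, 33.3 and 34.2 FPKM in treated cells, with a log2 fold change of −0.63 ± 0.061 (SE) and an adjusted p of 4.7e-05. Nars, which charges asparagine tRNA, had 86.8, 88.8 and 83.7 against 63.3, 55.04 and 55.3 FPKM, with a log2 fold change of −0.66 ± 0.064 (SE) and an adjusted p of 5.14e-05. Eprs (chr1:185363044-185428360), a fused enzyme for glutamate and proline, had 19.7, 16.8 and 15.9 against 12.1, 11.7 and 11.8 FPKM, with a log2 fold change of −0.63 ± 0.082 (SE) and an adjusted p of 0.000278. In none of these 3 genes did a treated library reach the RANKL range.

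Iars (chr13:49682100-49734267), the isoleucyl enzyme, had 60.2, 60.5 and 56.6 FPKM with RANKL and 48.2, 42.7 and 40.9 FPKM in treated cells, with a log2 fold change of −0.51 and an adjusted p of 0.000347. Gars (chr6:55038007-55079500), the glycyl enzyme of both cytosol and mitochondria, had 91.4, 89.5 and 91.2 against 77.8, 66.6 and 64.8 FPKM, with a log2 fold change of −0.46 and an adjusted p of 0.00063. It had the highest mean of the synthetases in RANKL cells, 90.7 ± 1.02 FPKM (SD, n = 3), and treated replicate 1 was again the nearest to the RANKL libraries.

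The remaining genes called lower were Tars, Hars, Yars, Cars, Rars, Mars, Aars and Sars, the enzymes for threonine, histidine, tyrosine, cysteine, arginine, methionine, alanine and serine. Their log2 fold changes ran from −0.51 (Tars) to −0.18 (Sars) and their adjusted p from 0.00067 (Tars) to 0.0358 (Sars). In deposited FPKM the groups of Mars, Aars and Sars overlapped and those of the other 5 did not. Both of the smallest of these falls depended on the scaling for their call: with library totals alone adjusted p was 0.0648 for Aars and 0.206 for Sars. The call for Sars was also lost without RANKL replicate 2 (adjusted p = 0.104) or 3 (0.0815) without treated replicate 2 (0.0573) or 3 (0.101), with no minimum level for testing (0.0775) and with the replicate block (0.0618). Of the exon length of Aars, 15.1% overlaps other genes, chiefly Exosc6.

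Qars (chr9:108507706-108515941), the glutaminyl enzyme, was the one synthetase whose treated values all lay above the RANKL values, at 28.2, 31.5 and 31.8 against 35.3, 35.4 and 37.0 FPKM. Its log2 fold change of 0.16 ± 0.060 (SE) had an adjusted p of 0.0531, above the threshold. It passed with library totals alone (adjusted p = 0.0105) and without RANKL replicate 3 (0.0365). Vars (chr17:35000987-35016322), the valyl enzyme, had 77.5, 80.4 and 91.4 against 88.4, 89.5 and 85.5 FPKM, with overlapping groups. Its log2 fold change was 0.00, with a 95% interval of −0.15 to 0.15 and an adjusted p of 0.968, and its sign changed with the scaling. Kars, Wars and Farsa had log2 fold changes of −0.05, −0.05 and −0.03 with adjusted p of 0.424, 0.537 and 0.767, and all 3 were above 0 with library totals alone.

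The order of the levels differed between the groups. In RANKL cells the mean FPKM ranked Gars (90.7 ± 1.02), Nars (86.4 ± 2.60) and Vars (83.1 ± 7.33, SD, n = 3 each) as the highest, and Nars and Vars differed by less than the spread of Vars. In treated cells Vars (87.8 ± 2.02) ranked first, above Gars (69.7 ± 7.03), Sars (60.4 ± 2.38) and Nars (57.9 ± 4.70), and Sars and Nars differed by less than the spread of Nars. Lars moved from rank 11 to rank 14 of 19. The lowest levels in RANKL cells, Eprs, Cars and Farsa (17.5, 16.4 and 16.3 FPKM), differed by less than the spread of Eprs (SD 1.96). Ranks between genes depend on the exon length that FPKM divides by, 18102 bases for Eprs and 3119 for Gars. In assigned reads, RANKL replicates 1, 2 and 3 had 5434, 4824 and 4190 for Eprs and 4348, 4432 and 4131 for Gars.

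**Figure D3:**
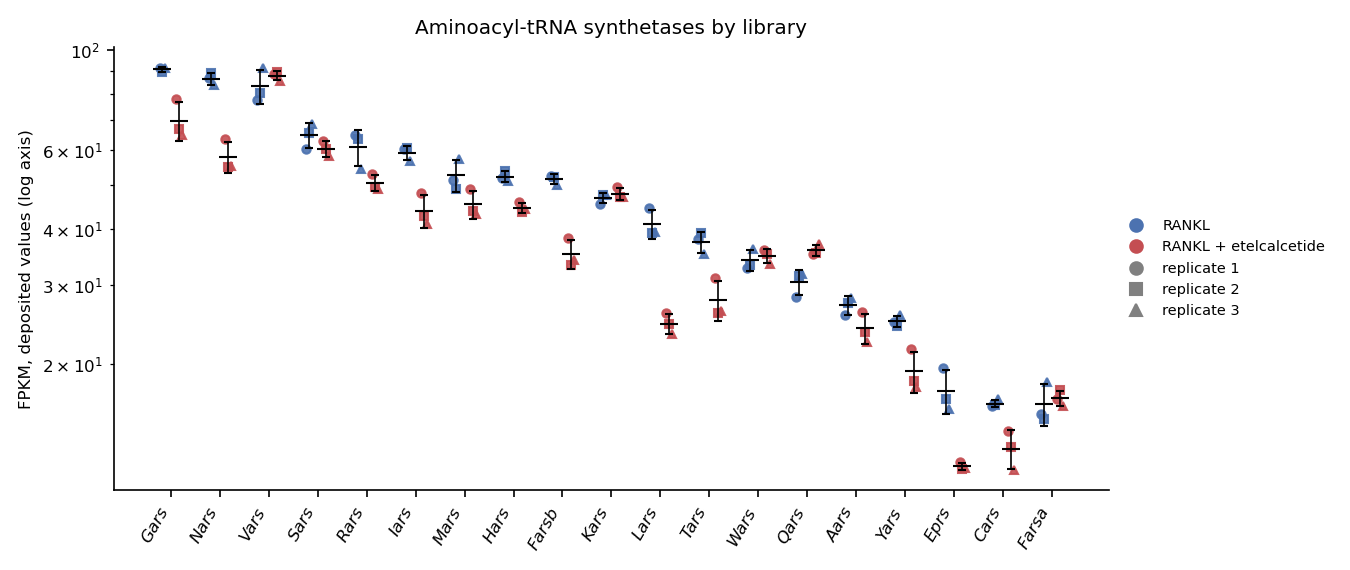
Deposited FPKM (vertical axis, log scale) of the 19 synthetase genes in each library, ordered by mean level with RANKL. Colours give the group, shapes replicates 1, 2 and 3, and bars the mean ± SD; the treated points of Lars, Nars, Farsb and Eprs lie well below the RANKL points, while those of Vars, Kars, Wars and Farsa overlap them.

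Ratios of 2 genes within a library do not depend on the scaling, but their size depends on the exon length of each gene. The pairs here join subunits, isoenzymes, steps of a route or a factor and its target, and were chosen after the values were known. Farsb and Farsa encode the 2 subunits of a single enzyme. Farsb stood at 3.40, 3.45 and 2.74 times Farsa with RANKL and at 2.27, 1.90 and 2.12 times in treated cells. Mthfd2 stood at 1.73, 1.53 and 1.73 times Mthfd1l with RANKL and at 1.14, 1.02 and 0.938 times in treated cells. The ratio of Ddit3 to Atf4 was 0.0319, 0.0341 and 0.0329 with RANKL and 0.0541, 0.0625 and 0.0567 in treated cells. In these 3 pairs the groups did not overlap, and the two-sided exact permutation p was 0.1, the smallest that 3 against 3 libraries allow (0.133 after Benjamini-Hochberg adjustment over the 4 pairs computed). The adjustment does not cover the choice of the pairs. These ratios are a description and do not say that either transcript of a pair stayed constant.

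**Figure D4:**
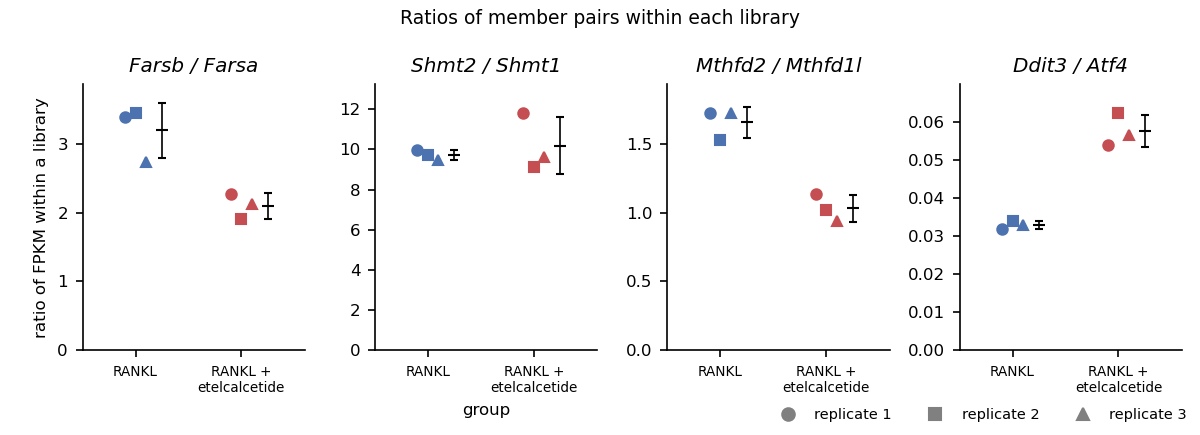
Ratio of the deposited FPKM of 2 genes within each library (vertical axis from 0), for the 4 pairs computed. Colours give the group, shapes replicates 1, 2 and 3, and bars the mean ± SD; the groups are apart for Farsb/Farsa, Mthfd2/Mthfd1l and Ddit3/Atf4 and overlap for Shmt2/Shmt1.

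The libraries of the treated group were not alike for these genes. Treated replicate 1 held the highest treated value for 27 of the 35 genes (77.1%) and for 23 of the 25 that were lower (92%), compared with 37.7% of all tested genes. RANKL replicate 3 was the highest of its group for 23 of the 35 genes (65.7%), compared with 41.0% of all tested genes. Between the libraries labelled 5 days the 35 genes had a median scaled log2 difference of −0.26, between those labelled 6 days −0.42 and between those labelled 7 days −0.52, and 27, 29 and 32 of the 35 were lower in the treated library. Each such comparison has 1 library per group and no test, and the labelled day and the replicate number cannot be told apart. Without treated replicate 1, 8 enzymes and 14 synthetases were lower, as with it. That removal took out the treated values nearest to RANKL for most lower genes, so it says little of how firm the falls are. Among the synthetases, Sars lost its call without treated replicate 2 or 3, or without RANKL replicate 2 or 3.

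Upstream of ATF4, 17 genes around eIF2 were listed: its subunits, kinases, phosphatases and exchange factor eIF2B, and also Gcn1l1, Impact and Eif2a. They split into 5 higher, 6 lower and 6 that did not pass, with a median log2 fold change of −0.03 (0.05 with library totals alone). The subunits of eIF2 itself were lower: the log2 fold change was −0.50 for Eif2s1, −0.63 for Eif2s2 and −0.51 for Eif2s3x, with adjusted p of 0.000417, 0.000806 and 6.53e-05. Eif2b3, a subunit of eIF2B, was also lower (−0.55, adjusted p = 0.000587). Ppp1r15a, or GADD34, which brings a phosphatase to eIF2 and is itself a target of the response, had 5.89, 6.498 and 7.43 FPKM with RANKL and 10.4, 9.96 and 10.3 FPKM in treated cells. It was higher at a log2 fold change of 0.55 ± 0.088 (SE), with an adjusted p of 0.00091. The other 4 higher genes were Eif2ak1, Gcn1l1, Eif2b4 and Eif2b5, named after their values were seen. Of these, Gcn1l1 had an adjusted p of 0.0392, which was 0.0578 with the replicate block and up to 0.165 with RANKL replicate 1 or 2 or any 1 treated replicate left out. Eif2b5 had an adjusted p of 0.0332, which was 0.0545 to 0.13 with any 1 of those same libraries left out. The 4 eIF2 kinases did not move one way: Eif2ak1 was higher (0.38, adjusted p = 0.00111), Eif2ak3 was lower (−0.26, 0.0248), and Eif2ak2, the kinase PKR (0.19, 0.186), and Eif2ak4 (−0.04, 0.592) did not pass. The call for Eif2ak3 was lost with library totals alone (0.0958) and without any 1 library but RANKL replicate 1 (up to 0.0712). Without RANKL replicate 2 or any 1 of the treated replicates, 3 genes of the list were higher.

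Of 28 other factors and targets of the ATF4 response, 24 were tested; 12 were lower, 3 higher and 9 did not pass, with a median of −0.21. Without RANKL replicate 2 the lower count was 6 and without treated replicate 3 it was 7, and with library totals alone it was 6. Atf3, a stress-induced bZIP factor, had 2.80, 3.01 and 2.78 FPKM with RANKL and 7.31, 9.09 and 6.99 FPKM in treated cells, higher at a log2 fold change of 1.33 ± 0.12 (SE) with an adjusted p of 2.77e-05. Gadd45a, a growth arrest gene counted among the higher ones, had 0.107 to 0.195 FPKM (3 to 5 reads) with RANKL and 0.661 to 0.784 FPKM (18 to 21 reads) in treated cells. It met the minimum for testing only through the treated libraries, where it was high, so its values are a description, and 19.1% of its exon length overlaps another gene. With the minimum set on the mean over all 6 libraries (1 FPKM), 2 genes of the list were higher and 10 lower. The other higher gene was Txnip, named after its values were seen.

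Cth, which makes cysteine from cystathionine, had 1.15, 1.11 and 2.34 FPKM with RANKL and 0.209, 0.313 and 0.176 FPKM in treated cells. It met the minimum for testing only through the RANKL libraries, where it was high, so these values are a description too, although it stands among the 12 counted as lower. Xpot, which exports tRNA from the nucleus, was lower (log2 fold change −0.66, adjusted p = 1.59e-05), as was Cebpg, a partner of ATF4 (−0.39, adjusted p = 0.00086). Cebpb, Ddit4 and Slc7a11 did not pass: Cebpb at 0.28 (adjusted p = 0.125), Ddit4 at 0.21 (0.154) and the cystine transporter gene Slc7a11 at −0.13 (0.45).

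Of 24 other genes of serine, one-carbon and methionine metabolism, 18 were tested; 13 were lower, 1 (Srr, serine racemase, named after its values were seen) was higher and 4 did not pass, with a median of −0.44. With library totals alone 11 were lower and 2 higher. Gcsh, the carrier protein of the glycine cleavage system, had 54.7, 55.3 and 59.0 FPKM with RANKL and 30.5, 31.7 and 30.9 FPKM in treated cells. It was lower at a log2 fold change of −0.94 ± 0.052 (SE), with an adjusted p of 2.13e-06. Dld, which encodes another protein of that system shared with other dehydrogenase complexes, was also lower (−0.76, adjusted p = 0.000287). Gldc and Amt, also of that system, were too low to test, at no more than 0.226 and 0.505 FPKM in any library. Mtr, methionine synthase, was lower (−0.49, adjusted p = 0.000192), and so was Mthfd1, the cytosolic folate enzyme (−0.46, 0.000205).

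The enzymes of proline, glutamate and aspartate metabolism outside the 35 genes did not move one way: of 11 tested, 4 were higher, 3 lower and 4 did not pass, with a median of 0.05. Ass1, which joins citrulline to aspartate, had 0.652, 0.548 and 0.684 FPKM with RANKL and 3.87, 4.16 and 2.95 FPKM in treated cells. It was higher at a log2 fold change of 2.29 ± 0.16 (SE), with an adjusted p of 8.97e-06. Asl, the next enzyme of that route, was higher (0.75, adjusted p = 0.000873), and so was Glul, glutamine synthetase (0.58, 0.000158). Glud1, glutamate dehydrogenase, was lower (−0.33, adjusted p = 0.000366). Oat, ornithine aminotransferase, was among the other lower genes and was named after its values were seen.

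Of 5 other genes for cytosolic synthetases and scaffold proteins, 3 were lower (Dars, Eef1e1 and Aimp1) and 0 higher. Dars, the aspartyl enzyme, had 38.1, 35.9 and 29.4 FPKM with RANKL and 25.02, 23.8 and 25.4 FPKM in treated cells, a log2 fold change of −0.55 ± 0.091 (SE) with an adjusted p of 0.00108. Eef1e1 and Aimp1, scaffold proteins of the synthetase complex, were lower, at −0.46 (adjusted p = 0.000465) and −0.27 (0.00534). Taken as a list of 11 that overlaps the others, subunits of that complex were lower for 8 and higher for 0, and Kars, Qars and Aimp2 did not pass.

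Of 20 mitochondrial synthetase and amidotransferase genes, 11 were lower, 0 higher and 9 did not pass, with a median of −0.28. The lower count was 5 with library totals alone and 7 without RANKL replicate 2. Among the lower genes were Gatb (log2 fold change −0.35, adjusted p = 0.00167), Wars2 (−0.43, 0.00386) and Hars2 (−0.25, 0.0117). Of these, Hars2 lost its call with library totals alone (adjusted p = 0.0665). Among genes that sense amino acids or restrain mTORC1, 9 of 10 were tested; 5 were higher, 1 lower and 3 did not pass, with a median of 0.24. Castor2, related to an arginine sensor, was higher (log2 fold change 0.78, adjusted p = 2.65e-05), as were Castor1, the arginine sensor (0.58, 0.0054) and Tsc2 (0.41, 0.00502), while Sesn1, a relative of Sesn2, was lower (−0.80, 1.69e-05). The other higher genes were Depdc5 and Nprl2, named after their values were seen, and the higher count was 3 without treated replicate 1 or without treated replicate 2.

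**Figure D5:**
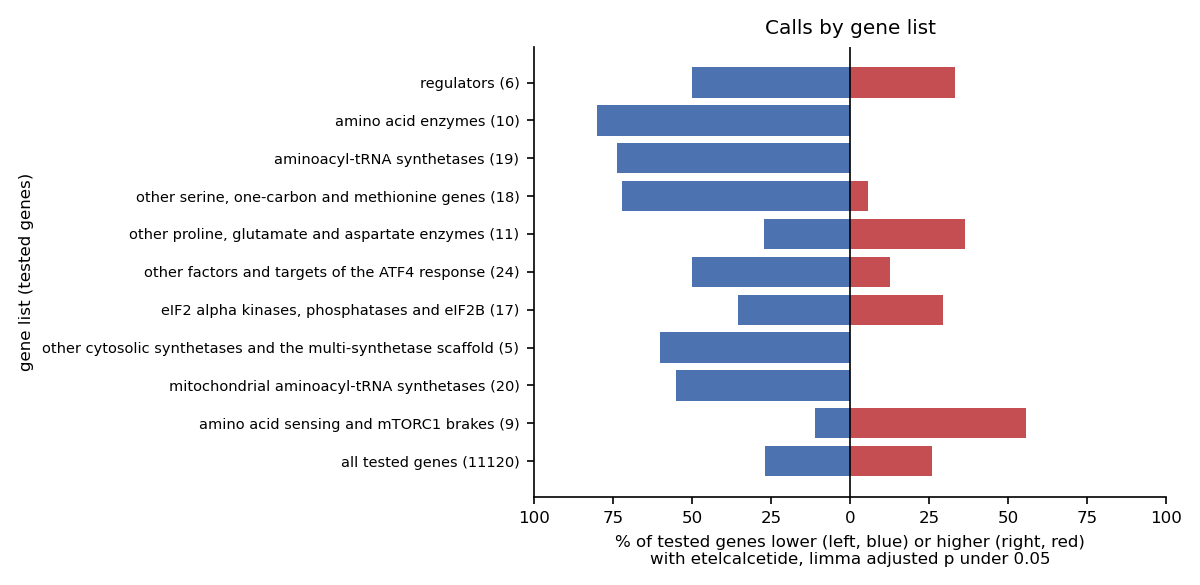
Percent of tested genes called lower (blue bars, left of 0) and higher (red bars, right of 0) in each class and pathway list, with the number tested in brackets and all tested genes in the last row. The amino acid enzymes have the largest lower share, 80%, and all tested genes 27%.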

How the data were processed

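The authors deposited 1 table per library of FPKM values for 55536 Ensembl genes. The submitters' processing notes name HISAT2 2.1.0, featureCounts 1.6.0, Trimmomatic 0.38, DESeq2 1.22.1, CASAVA, MultiQC and FastQC, without their roles. These notes name build GRCh38, but all 55536 IDs matched mouse GENCODE M21 on GRCm38, whose 1-based coordinates are given. FPKM times merged exon length gave whole reads (tolerance 0.01) for 100% of values. Library strandedness and the RNA selection are not given in the sources used here. Ddit3 has a second ID, with 0 reads, and the longer one was used.

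Genes with at least 0.5 FPKM and 10 reads in at least 3 libraries were tested with limma 3.58.1 (R 4.3.3) on log2(FPKM / TMM factor + 0.1), fitted by group alone with a trend in the prior variance. TMM factors (trims of 30% and 5%) were 0.967 to 0.978 with RANKL and 1.01 to 1.04 in treated libraries. Printed FPKM are the deposited values, before scaling. The log2(FPKM + 0.1) scale understates changes of low genes. Single ratios used exact permutation tests. Replicate libraries differed beyond sampling noise on the mean over genes (chi-square per gene 5.38 to 29.0), so none was counted as a copy. The medians per gene were 1.08 to 2.67, and treated replicates 2 and 3 had the highest mean and the lowest median. Scripts were tested on simulated data. Python 3.11.15, pandas 2.3.3 and scipy 1.17.1 were used.

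The members and lists were chosen with earlier results of these data known. Values in every library are given for regulators, enzymes and, of the synthetases, the 6 with the smallest adjusted p, the 3 with the largest fold change and those that moved against the majority. Of each other list up to 4 genes with the smallest adjusted p are named, plus Ppp1r15a, Atf3, Cebpb, Cebpg, Slc7a11, Ddit4, Dars and Eif2ak2; some items that these rules name are not reported here. Alternatives covered scaling, pseudocount, filter, the replicate block, limma-voom on recovered reads and each library left out; for the pathway lists they were added after seeing the data.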

Additional observations from a re-analysis of the deposited data

How the results depend on the processing

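Of the 27 genes called among the 35, 22 kept their call under all 15 alternatives and 23 under the 9 that use all 6 libraries. Library totals alone moved the split over all tested genes from 2896 higher and 2998 lower to 3558 and 2272. Leaving out 1 library gave 2224 to 3064 higher and 2390 to 3000 lower. Regulators called higher ranged from 1 to 2 with a library left out, and 1 regulator was lower with no filter, against 3. Synthetases called higher numbered 1 with library totals alone and 1 with limma-voom, and 0 to 1 with a library left out. Chac1 was lost with no filter (adjusted p = 0.0573).

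For the pathway lists, no filter gave 3 higher eIF2 genes, 7 lower ATF4 targets, 0 higher serine and one-carbon genes and 7 lower mitochondrial synthetases. Library totals alone gave 6 lower ATF4 targets, 2 higher serine and one-carbon genes, 5 lower mitochondrial synthetases and 1 higher complex subunit, and limma-voom gave 2 and 1 for the higher counts of the serine and complex lists. With a library left out the ranges were 3 to 5 higher eIF2 genes, 6 to 13 lower ATF4 targets, 0 to 2 higher serine and one-carbon genes, 7 to 11 lower mitochondrial synthetases, 0 to 1 higher complex subunits and 3 to 5 higher mTORC1 genes.

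Signs reversed only in genes that did not pass. With library totals alone log2 fold changes were 0.048 for Mthfd1l, 0.030 for Kars, 0.033 for Wars and 0.047 for Farsa. Vars was −0.0036 with median-of-ratios factors and −0.0080 with upper-quartile scaling. With a library left out Vars ranged from −0.046 (RANKL replicate 1) to 0.070 (RANKL replicate 3) and was also below 0 without RANKL replicate 2 or treated replicate 2. Mthfd1l ranged from −0.073 to 0.011, the last without RANKL replicate 2, and Farsa from −0.078 to 0.050, the last without RANKL replicate 3. The cause of these shifts was not tested.

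Replicate numbers are shared by the groups, but same-numbered libraries had correlations of deviations of 0.074, −0.019 and −0.030, so the numbers were not taken to pair them. With the replicate block 2777 genes were higher and 2932 lower, and Sars lost its call (adjusted p = 0.0618). The fewest reads among the 35 genes were 35 in a library, for Trib3; the part of depth in the calls that were missed was not tested.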

Other observations

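Lars2, the mitochondrial leucyl-tRNA synthetase, differed widely between treated replicates and was singled out after its values were seen. It had 102, 96.7 and 145 FPKM with RANKL and 50.1, 153 and 32.8 FPKM in treated replicates 1, 2 and 3, a log2 fold change of −0.92 ± 0.47 (SE) with an adjusted p of 0.131. The rRNA gene CT010467.1 had 4469, 4482 and 6548 FPKM with RANKL and 2624, 10240 and 1309 FPKM in treated replicates 1, 2 and 3, so both were highest in treated replicate 2 and lowest in treated replicate 3. Without treated replicate 2 the adjusted p was 0.000576 for Lars2 and 0.00286 for CT010467.1. The part of rRNA in the value of Lars2 was not tested.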
